A study of Homo sapiens with 38 samples.

Results

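The genes described here are the collagen and laminin chains of the human genome as measured during neural induction of H9, a human embryonic stem cell line in wide use. They are defined by name alone, as every protein-coding gene whose symbol has the form of a collagen alpha chain or a laminin alpha, beta or gamma chain, and no measured value enters that rule. This rule was met by 56 of the 58219 genes with deposited values, 44 collagens and 12 laminins. The study followed cells that acquire different positions along the rostral to caudal axis of the neural tube as WNT signalling is lowered or raised. Poly(A) RNA was sequenced from 38 libraries, which the labels call biological replicates and which form 19 groups of 2. At day 4 and again at day 8 there were 9 conditions. These were IWP2 at 2 µM, an inhibitor of WNT, CT at 0.4, 0.8, 1.0, 2.0, 3.0 or 4.0 µM, an activator of WNT whose name the labels leave unexpanded, CT at 4.0 µM with 1.0 µM retinoic acid (RA), and untreated cells (CT0.0). Undifferentiated cells at day 0 (D0 ESC) preceded them. The study's design text names the rostral forebrain for IWP2, the spinal cord for CT4.0RA, and the regions between them for CT without RA, by its dose. Every library comes from the same cell line, so the spread between replicates is that of cultures, not of donors.

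Collagens are triple helices of 3 alpha chains. The fibrillar collagens form the banded fibres of connective tissue, the collagen IV chains form the sheet of basement membranes, and smaller families coat fibrils, anchor basement membranes or span the cell membrane. Laminins are trimers of an alpha, a beta and a gamma chain that polymerise on the cell surface and seed a basement membrane. The neural plate and neural tube rest on such a membrane, and its laminin is read by integrins and dystroglycan on the basal side of the neuroepithelial cells.

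Values are TPM, a transcript abundance corrected for length, so levels may be set side by side between genes. Tests were made with limma on log2(TPM + 1), and a gene was called when its adjusted p (Benjamini-Hochberg over the 28221 genes tested) was under 0.05 and its log2 fold change at least 1 in size. This scale understates the change of genes near 0. Of the 56 chains 49 reached 1 TPM in at least 2 libraries and were tested. The other 7 (COL24A1, COL4A4, COL6A5, COL6A6, COL19A1, LAMB3 and LAMB4) stayed under that level, with 1.07 TPM in 1 stem cell library the highest value among them. Replicates correlated at 0.972 to 0.993 over the tested chains and at 0.958 to 0.972 over all genes tested. By the latter, 33 of the 38 libraries were closest to the other library of their own group. Ribosomal protein genes took 17.3 to 39.3% of TPM by library, and that share lowers the values of all other genes.

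The labels were set against marker genes. POU5F1, the defining pluripotency factor, stood at 10.3 to 61.3 TPM at day 4 and at no more than 3.1 TPM at day 8, against 2510 and 2400 TPM in D0 ESC. The 5 pluripotency markers summed to 122 and 139 TPM in D8 CT0.0, against 3320 and 3280 TPM in D0 ESC. Most of that day 8 sum was DPPA4, with 120 and 138 TPM, against 429 and 449 TPM in D0 ESC. PAX6, a neural progenitor factor, had 326 and 327 TPM in D8 CT4.0RA and 126 and 95.1 TPM in D8 CT0.0. In D8 CT4.0, by contrast, PAX6 had 1.29 and 1.78 TPM and SOX1 0.0763 and 0.149 TPM, so these defining neural markers were near 0 there, while SOX2 had 147 and 141 TPM. In bulk RNA, fewer cells of a type and less RNA per cell cannot be told apart.

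Levels of the tested chains differed widely among themselves. COL2A1 reached 854 TPM, LAMB2 207 TPM, LAMA5 203 TPM and COL26A1 194 TPM, and LAMC3, COL8A2 and COL10A1 stayed under 2 TPM in every library after day 0. Summed over the 56 chains, the level was 1239 and 1082 TPM in D0 ESC and lay between 668 and 1137 TPM at day 4. At day 8 the sum was 2331 and 2140 TPM with IWP2, 2085 and 1876 TPM in untreated cells, and 2550 and 2443 TPM with CT0.4. From CT1.0 upwards it was 840 to 1116 TPM. COL2A1 alone made up as much as 36.7% of this sum in D8 IWP2, against 1.25 to 1.29% in D0 ESC. The F test over the 9 conditions of a day passed for 36 of the 49 tested chains at day 4, where it passed for 46.4% of all genes tested, and for 35 at day 8, against 57.9% of all genes. The 10 that passed on neither day were COL8A2, COL4A3, COL8A1, COL21A1, COL10A1, LAMA2, COL28A1, COL15A1, LAMC3 and COL20A1, all of low level.

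**Figure D1:**
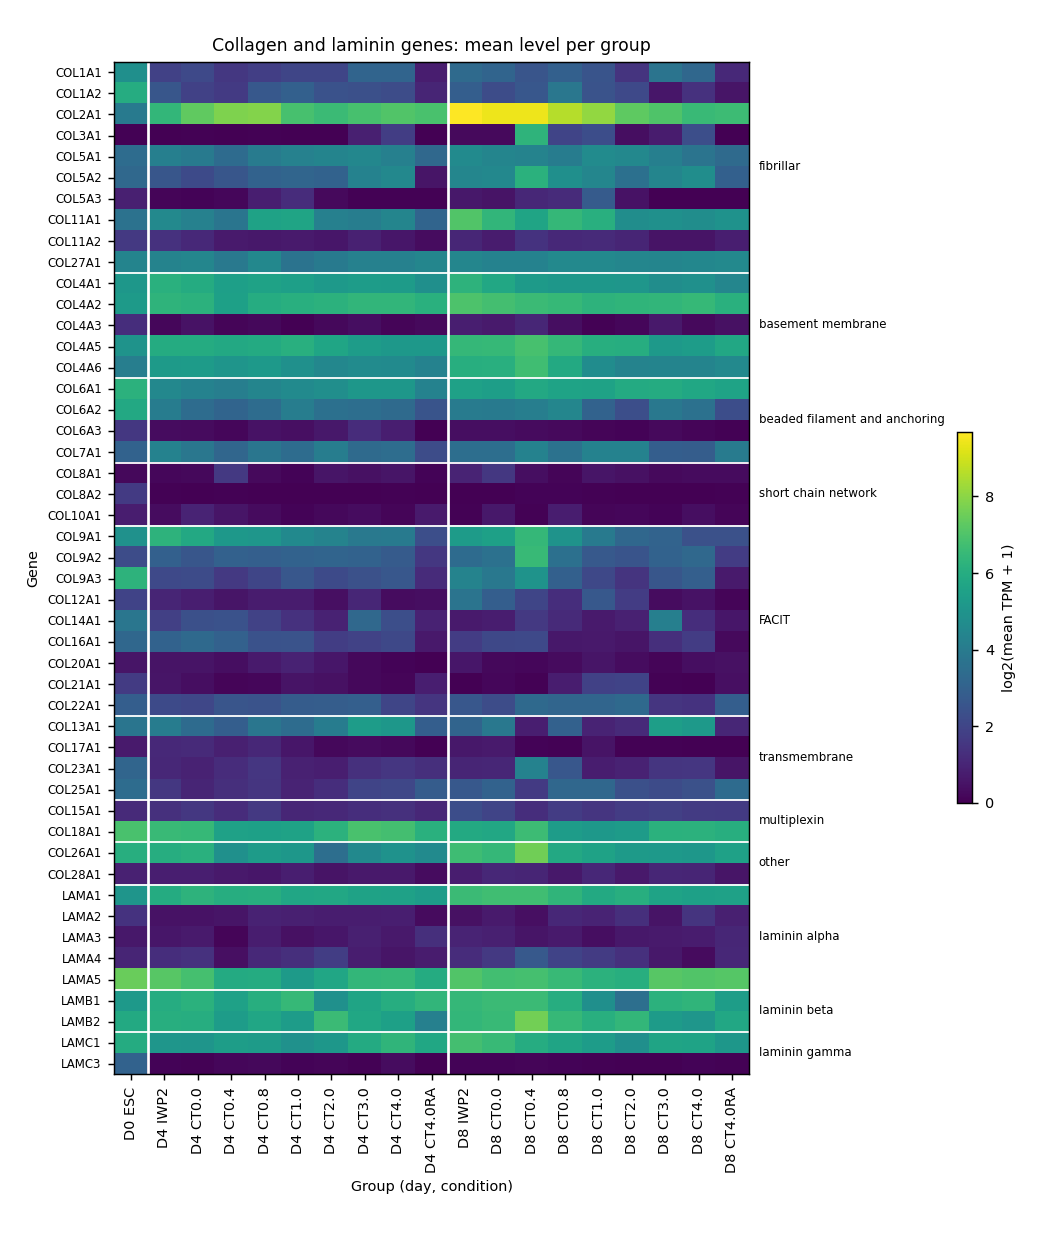
Mean level of 48 of the 49 tested chains (rows, by family) in each of the 19 groups (columns, by day and condition), as log2(mean TPM + 1) in colour. COL2A1 is brightest in D8 IWP2, D8 CT0.0 and D8 CT0.4, and D8 CT0.4 stands out in COL3A1, COL5A2, COL9A2, COL23A1, COL26A1 and LAMB2.

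Among the fibrillar collagens COL2A1 was the most abundant. It encodes the type II chain of cartilage, which embryos also make in notochord and neuroepithelium. The gene (ENSG00000139219.17) lies on chromosome 12 at 47972965 to 48004554 on the minus strand of hg38. It had 161 and 154 TPM in D4 CT0.0, against 15.9 and 13.5 TPM in D0 ESC, a log2 fold change of 3.34 ± 0.14 (SE, n = 2 each, limma adjusted p = 9.27e-15). At day 8 untreated cells had 726 and 660 TPM, a further 2.13 ± 0.14 over day 4 (adjusted p = 2.54e-10). The 3 stages did not overlap.

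At day 8 COL2A1 was lower at the higher CT doses. The means were 817 TPM with IWP2, 693 TPM untreated, 686 TPM at CT0.4, 387 TPM at CT0.8, 277 TPM at CT1.0, 152 TPM at CT2.0, 127 TPM at CT3.0 and 92.6 TPM at CT4.0. No library at CT0.8 or above reached the lowest untreated one. CT1.0 was below untreated cells, with a log2 fold change of -1.32 ± 0.14 (adjusted p = 2.90e-07), and so was CT4.0, with -2.89 ± 0.14 (adjusted p = 1.73e-13). At CT0.4 the difference was -0.02 ± 0.14 (adjusted p = 1), and RA added to CT4.0 gave 94.5 and 99.7 TPM, against 92.3 and 92.9 TPM with CT4.0 alone. At day 4 the CT4.0 libraries had 142 and 124 TPM and the untreated ones 161 and 154 TPM, a difference of -0.24 ± 0.14 that did not pass (adjusted p = 0.226). The CT4.0 effect differed between day 8 and day 4 by -2.65 ± 0.19 on the log2 scale (adjusted p = 7.42e-09). These comparisons share the untreated libraries.

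COL11A1, whose chain joins type II collagen in mixed fibrils, also had its highest levels at day 8. The maximum was 127 and 134 TPM in D8 IWP2, and D8 CT0.8 had 91.1 and 82.2 TPM. D8 CT0.0 had 85.5 and 78.7 TPM, against 18.7 and 17.6 TPM in D4 CT0.0 (log2 fold change 2.11 ± 0.24, adjusted p = 1.20e-06). D8 CT4.0 had 20.6 and 30.5 TPM, lower than untreated day 8 cells (-1.67 ± 0.24, adjusted p = 5.52e-06). At day 4 CT1.0 libraries had 47.4 and 50.8 TPM, against 18.7 and 17.6 TPM in untreated cells (1.39 ± 0.24, adjusted p = 0.000164), and the D4 CT0.8 libraries, with 39.9 and 53.7 TPM, overlapped them.

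COL3A1 was at 5.42 TPM or less in every library except those of D8 CT0.4. Its chain forms the thin fibrils of distensible tissues such as vessel wall and skin. The 2 D8 CT0.4 libraries had 89.1 and 66.6 TPM, against 0.2 and 0.175 TPM in D8 CT0.0, a log2 fold change of 6.04 ± 0.24 (adjusted p = 2.63e-14). At the next dose, CT0.8, it had 3.28 and 2.74 TPM, and the D4 CT0.4 libraries had 0.042 and 0 TPM. So the high values were those of 1 dose on 1 day, in both libraries. Smaller rises passed the test at D8 CT1.0 (4.62 and 3.2 TPM, log2 fold change 2.03 ± 0.24, adjusted p = 2.64e-06) and at CT4.0 on day 4 (1.82 and 2.91 TPM, 1.66 ± 0.24, adjusted p = 1.67e-05) and day 8 (2.7 and 5.42 TPM, 2.04 ± 0.24, adjusted p = 4.91e-07).

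COL5A2, a chain of the type V collagen that regulates fibril diameter, is the neighbour of COL3A1 on chromosome 2. COL3A1 runs from 188974320 to 189012746 on the plus strand and COL5A2 from 189031896 to 189225312 on the minus strand (hg38), so their 3′ ends face each other. COL5A2 too was highest in D8 CT0.4, with 74.5 and 67.9 TPM against 23.2 and 20.2 TPM in D8 CT0.0 (1.67 ± 0.18, adjusted p = 2.80e-07). It differed from COL3A1 in its wider expression, with 20.5 and 20.9 TPM in D8 IWP2 and 19.7 and 23.8 TPM in D4 CT4.0. The D4 CT4.0 value stood against 4 and 2.94 TPM in D4 CT0.0 (2.35 ± 0.18, adjusted p = 7.80e-10).

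COL5A2 was lower when RA was added, on both days. At day 4 CT4.0RA libraries had 0.301 and 0.632 TPM, against 19.7 and 23.8 TPM with CT4.0 alone, a log2 fold change of -3.96 ± 0.18 (adjusted p = 3.29e-13). At day 8 the values were 6.29 and 7.19 TPM with RA and 27.1 and 24.2 TPM without (-1.79 ± 0.18, adjusted p = 5.85e-08). The RA effect was smaller in size at day 8, with a difference between days of 2.17 ± 0.25 (adjusted p = 2.90e-06). The groups did not overlap on either day.

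The type I chains, the bulk of bone and tendon collagen, were highest before induction. COL1A2 had 2.26 and 3.04 TPM in D4 CT0.0, against 69 and 56.8 TPM in D0 ESC (-4.13 ± 0.31, adjusted p = 2.38e-10). COL1A1 had 2.43 and 4.29 TPM, against 32.3 and 21.6 TPM (-2.69 ± 0.37, adjusted p = 3.08e-06). After day 0 the highest COL1A2 level was 12.7 and 13.9 TPM in D8 CT0.8, and the highest COL1A1 level was 14.7 and 9.7 TPM in D8 CT3.0, where COL1A2 had 0.543 and 0.491 TPM, so the 2 chains of type I collagen did not share a maximum. RA lowered COL1A1 to 0.781 and 1.51 TPM at day 8, against 9.33 and 7.56 TPM with CT4.0 (-2.15 ± 0.37, adjusted p = 8.71e-05), and to 0.647 and 0.764 TPM at day 4, against 7.15 and 8.06 TPM (-2.33 ± 0.37, adjusted p = 4.82e-05). The day 4 rise of COL1A1 with CT4.0 over untreated cells (1.01 ± 0.37, adjusted p = 0.0489) lost its call without D4 CT0.0 replicate 1 (0.70), without D4 CT4.0 replicate 1 (1.09, adjusted p = 0.121) and without D4 CT4.0 replicate 2 (0.94).

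COL5A3, another type V chain, was highest at CT1.0 on day 8. D8 CT1.0 had 6.4 and 5.18 TPM, against 0.481 and 0.379 TPM in D8 CT0.0 (2.24 ± 0.16, adjusted p = 4.60e-10), and no library of another group exceeded 1.63 TPM. At D4 CT1.0 it had 1.09 and 1.63 TPM, against 0.0958 and 0.059 TPM in untreated cells (1.12 ± 0.16, adjusted p = 1.42e-05), a call that ended at 0.95 without D4 CT1.0 replicate 2. COL27A1 was the steadiest chain of this family, between 11.6 and 25.7 TPM in all 38 libraries. COL5A1 ranged from 7.73 to 26.4 TPM, and COL11A2 reached no more than 2.18 TPM.

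**Figure D2:**
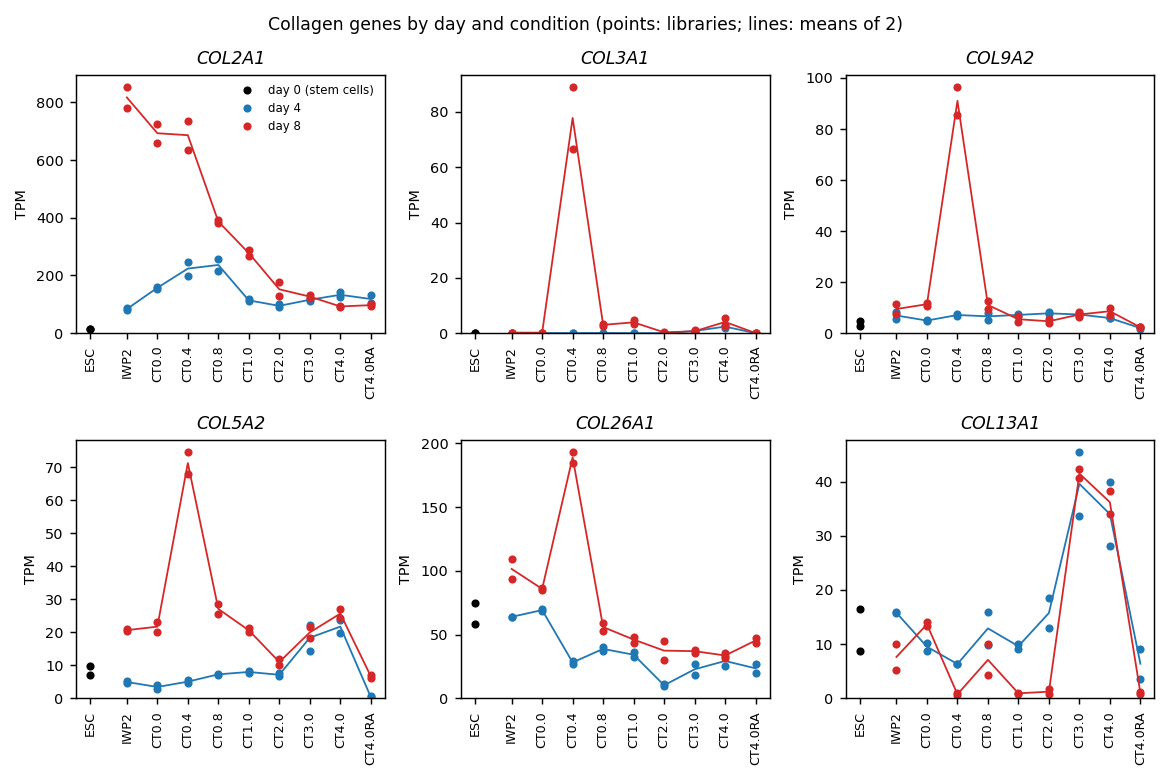
TPM of 6 collagen genes (y axes, each from 0) in stem cells (black), at day 4 (blue) and at day 8 (red) across the 9 conditions (x axis); points are single libraries and lines join means of 2. COL2A1 declines with CT at day 8, 4 genes peak in both D8 CT0.4 libraries, and COL13A1 is highest at CT3.0 and CT4.0.

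The collagen IV chains of basement membranes are encoded by pairs of genes that lie head to head and are transcribed away from each other. The stretches between RefSeq start sites are shown because the ratio of the partners within each pair changed with day or dose, as given further on. The COL4A1 and COL4A2 starts are 126 bases apart on chr13:110307158-110307283 and those of COL4A5 and COL4A6 are 379 bases apart on the X chromosome. Each line gives plus-strand bases for the first and, for the others, the 250 bases before the start on the gene's own strand (COL4A6, minus strand, chrX:108439459-108439708, and COL4A5, plus strand, chrX:108439588-108439837), from RefSeq on GRCh38.p14. Capitals mark CCAAT, or ATTGG where it lies on the other strand, and GGGCGG.
COL4A1-COL4A2: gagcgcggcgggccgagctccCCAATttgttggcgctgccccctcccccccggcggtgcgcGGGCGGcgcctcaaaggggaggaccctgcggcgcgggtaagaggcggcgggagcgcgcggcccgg
COL4A6: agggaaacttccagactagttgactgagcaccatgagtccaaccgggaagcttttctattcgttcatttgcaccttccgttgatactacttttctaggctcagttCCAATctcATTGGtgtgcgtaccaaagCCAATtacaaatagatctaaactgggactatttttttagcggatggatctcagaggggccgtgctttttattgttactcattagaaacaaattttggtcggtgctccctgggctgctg
COL4A5: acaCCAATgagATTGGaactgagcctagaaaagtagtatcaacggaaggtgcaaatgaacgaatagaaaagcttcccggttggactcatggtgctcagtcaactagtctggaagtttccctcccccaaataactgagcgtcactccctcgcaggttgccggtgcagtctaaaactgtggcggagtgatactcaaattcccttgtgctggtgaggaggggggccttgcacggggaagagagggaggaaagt
The first holds 1 CCAAT and 1 GGGCGG. The COL4A6 window holds 3 CCAAT and the COL4A5 window 2, and these windows overlap, so 2 of the matches are the same bases; neither holds GGGCGG. Over both strands 32% of 35116 RefSeq promoter windows of 250 bases held CCAAT and 42.6% held GGGCGG. RefSeq windows were matched for 41 of the 56 chains (55 start sites), of which 13 held CCAAT and 27 held GGGCGG. Such matches are descriptions of letters, not of bound sites.

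COL4A1 and COL4A2, which assemble into the collagen IV of nearly all basement membranes, were nearly equal in stem cells. D0 ESC had 34.1 and 34.4 TPM of COL4A1 and 38.9 and 35.7 TPM of COL4A2. At day 4 untreated cells had 60 and 63.5 TPM of COL4A1 and 71.3 and 74.1 TPM of COL4A2, with log2 fold changes over D0 ESC of 0.83 ± 0.06 and 0.95 ± 0.10 that stayed under the fold threshold (adjusted p = 2.68e-10 and 7.86e-08). Later the partners parted. At day 8 untreated cells had 54 and 54.6 TPM of COL4A1 but 112 and 106 TPM of COL4A2.

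The ratio of COL4A1 to COL4A2 showed this in each library. It was 0.877 and 0.963 in D0 ESC and 0.842 and 0.856 in D4 CT0.0, and 0.497 and 0.458 in D4 CT4.0. At day 8 it was 0.481 and 0.513 in untreated cells, 0.327 and 0.299 with CT4.0, and 0.294 and 0.289 with CT4.0RA. So the ratio was lower in every day 8 group than in the day 4 group of the same condition, and no library of one overlapped the other. COL4A1 had 27.4 and 28.1 TPM in D8 CT4.0 against 54 and 54.6 TPM in D8 CT0.0 (-0.95 ± 0.06, adjusted p = 4.04e-11), while COL4A2 had 83.5 and 93.9 TPM against 112 and 106 TPM (-0.30 ± 0.10, adjusted p = 0.0214). Neither change reached the fold threshold, and with TMM scaling (the trimmed mean of log ratios, which centres the libraries on most genes) the COL4A2 value was 0.15, so its direction depends on the scaling. Over the 19 group means of log2(TPM + 1) Pearson's r between the 2 genes was 0.244, a description only.

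COL4A5 and COL4A6, which form the collagen IV of smooth muscle and some epithelia, had r = 0.861 over the same 19 means, also a description. Their ratio ranged from 1.04 to 3.97 over the 38 libraries, where that of COL4A1 to COL4A2 ranged from 0.289 to 0.989. COL4A6 had 36.8 and 40.4 TPM in D4 CT0.0, against 17.6 and 15.3 TPM in D0 ESC (1.18 ± 0.11, adjusted p = 4.66e-09). COL4A5 had 60.5 and 62 TPM, against 35.3 and 24.7 TPM (1.03 ± 0.19, adjusted p = 0.00011), a call that ended at 0.78 without D0 ESC replicate 2 and at 0.89 with TMM scaling. Both had their maximum in D8 CT0.4, COL4A5 with 124 and 109 TPM and COL4A6 with 104 and 105 TPM.

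At CT1.0 on day 8 COL4A6 fell, while the difference of COL4A5 did not pass the test. COL4A6 had 24.5 and 25.3 TPM in D8 CT1.0, against 73.7 and 62.8 TPM in D8 CT0.0 (-1.42 ± 0.11, adjusted p = 1.50e-09), where COL4A5 had 77 and 54.2 TPM against 89.5 and 85.9 TPM (-0.43 ± 0.19, adjusted p = 0.146). The ratio of COL4A5 to COL4A6 was 3.15 and 2.15 in D8 CT1.0 and 3.97 and 2.79 in D8 CT2.0, against 1.22 and 1.37 in D8 CT0.0. With CT4.0 both were lower than in untreated day 8 cells, COL4A6 (-1.75 ± 0.11, adjusted p = 9.10e-12) and COL4A5 (-1.13 ± 0.19, adjusted p = 3.48e-05). The COL4A5 value was -0.68 with TMM scaling, under the fold threshold. COL4A3, which forms another such pair with COL4A4 whose starts are 418 bases apart, exceeded 1 TPM in 1 or both libraries of D0 ESC, D8 IWP2, D8 CT0.0 and D8 CT0.4 only, and COL4A4 reached at most 0.614 TPM.

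**Figure D3:**
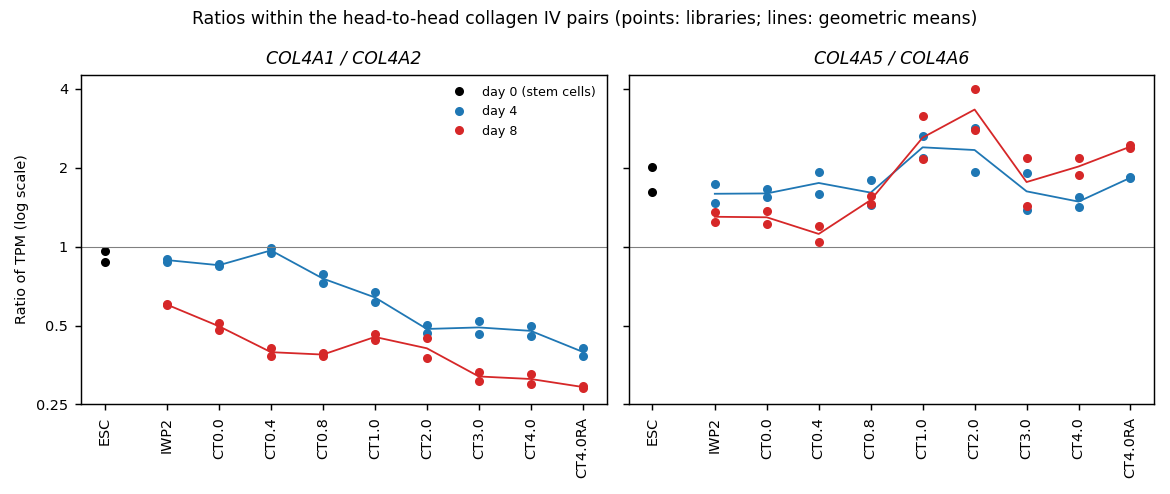
Ratio of TPM within the head-to-head pairs COL4A1/COL4A2 (left) and COL4A5/COL4A6 (right) per library (points, log axis, lines through geometric means) in stem cells (black), at day 4 (blue) and day 8 (red). COL4A1/COL4A2 lies between 0.842 and 0.963 in stem cells and untreated day 4 cells and at 0.294 and 0.289 in D8 CT4.0RA, and COL4A5/COL4A6 stays above 1 throughout.

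Of the laminin chains, the alpha chains were carried by LAMA5 and LAMA1. LAMA5, the alpha chain of most later basement membranes, had the higher level in stem cells, with 203 and 149 TPM beside 29.7 and 34.5 TPM of LAMA1. LAMA1, the chain of the first embryonic membranes, had 76.1 and 74.1 TPM in D4 CT0.0, against 29.7 and 34.5 TPM in D0 ESC (1.21 ± 0.12, adjusted p = 1.89e-08). The ratio of LAMA5 to LAMA1 was 1.41 and 1.56 in D4 CT0.0, against 6.84 and 4.31 in D0 ESC. About 11.1% of the exonic bases of LAMA1 overlap antisense genes in GENCODE, and the strandedness of the libraries is not given in the sources used here.

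At day 8 the 2 alpha chains differed in their response to CT4.0. LAMA1 fell, to 47.7 and 41.4 TPM in D8 CT4.0, against 110 and 95.3 TPM in D8 CT0.0 (-1.19 ± 0.12, adjusted p = 2.59e-08, and -0.74 with TMM scaling, under the threshold). LAMA5 had 131 and 132 TPM, against 118 and 97.3 TPM, a difference that did not pass (0.29 ± 0.21, adjusted p = 0.314). At day 4, LAMA5 was lowest at CT1.0, with 36.7 and 38.5 TPM against 108 and 116 TPM in untreated cells (-1.55 ± 0.21, adjusted p = 1.19e-05). D8 CT4.0RA had 147 and 128 TPM of LAMA5, against 68.2 and 53.1 TPM in D4 CT4.0RA (1.18 ± 0.21, adjusted p = 0.000198). LAMA2, LAMA3 and LAMA4 stayed at 5.58 TPM or less, and LAMA4 had its maximum of 5.4 and 5.58 TPM in D8 CT0.4.

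The beta chains LAMB1 and LAMB2 diverged by dose and day. LAMB1 is the beta chain of early embryonic laminins and LAMB2 that of the kidney filter and the neuromuscular junction. At D8 CT1.0 LAMB1 had 26.2 and 29 TPM, against 109 and 83.6 TPM in D8 CT0.0 (-1.76 ± 0.20, adjusted p = 1.67e-06). Its lowest values, 7.48 and 13.8 TPM, were those of D8 CT2.0, and at the next dose, CT3.0, it had 73.1 and 72.3 TPM. No other day 8 group was as low as CT1.0 and CT2.0, and D4 CT2.0 had the lowest LAMB1 values of day 4, at 30.1 and 26.5 TPM.

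LAMB2 had another order. D4 CT2.0, where LAMB1 was low, had the highest LAMB2 values of day 4, at 107 and 84.2 TPM. D8 CT0.4 had the highest of all, 184 and 207 TPM, against 106 and 74.5 TPM in D8 CT0.0 (1.13 ± 0.19, adjusted p = 0.000183), which fell under the fold threshold (0.88) without D8 CT0.0 replicate 2. D8 CT4.0 had 35.5 and 29.7 TPM, lower than untreated cells (-1.42 ± 0.19, adjusted p = 2.91e-06, and -0.97 with TMM scaling, under the fold threshold). The ratio of LAMB1 to LAMB2 was 0.0896 and 0.164 in D8 CT2.0, 2.29 and 2.63 in D8 CT4.0, and 1.03 and 1.12 in D8 CT0.0, while D4 CT4.0RA had 3.79 and 5.65.

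For both beta chains the RA effect differed between the 2 days. At day 4 LAMB2 had 18.7 and 16.6 TPM with RA and 39.9 and 49.2 TPM with CT4.0 alone (-1.28 ± 0.19, adjusted p = 2.84e-05, and -0.98 with TMM scaling). At day 8 it had 49.7 and 58.9 TPM with RA and 35.5 and 29.7 TPM without, and the difference between the days' RA effects was 2.00 ± 0.27 (adjusted p = 2.15e-05). For LAMB1 the same difference was -1.30 ± 0.29 (adjusted p = 0.00291): with RA it had 71 and 93.9 TPM at day 4 and 41.3 and 40.9 TPM at day 8, while CT4.0 alone gave 60 and 66.9 TPM at day 4 and 81.2 and 78.1 TPM at day 8. LAMB3 and LAMB4 stayed under 1 TPM.

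The gamma chain of nearly all embryonic laminins is LAMC1. In untreated cells it had 30.9 and 33 TPM at day 4, against 56.9 and 64.2 TPM in D0 ESC (-0.90 ± 0.11, adjusted p = 1.08e-06, under the fold threshold), and 89 and 90.5 TPM at day 8 (1.46 ± 0.11 over day 4, adjusted p = 5.12e-09). With CT4.0 the order of the days was the other way round. D4 CT4.0 had 68 and 89.9 TPM, above untreated day 4 cells by 1.27 ± 0.11 (adjusted p = 1.34e-08), and D8 CT4.0 had 44 and 52.4 TPM, below untreated day 8 cells (-0.89 ± 0.11, adjusted p = 1.36e-06). The CT4.0 effect therefore differed between days by -2.15 ± 0.16 (adjusted p = 1.02e-08). LAMC3, a gamma chain of vascular and retinal laminins, exceeded 1 TPM in stem cells only. It had 0.0237 and 0.0698 TPM in D4 CT0.0, against 6.06 and 8.53 TPM in D0 ESC (-2.97 ± 0.15, adjusted p = 6.07e-13).

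**Figure D4:**
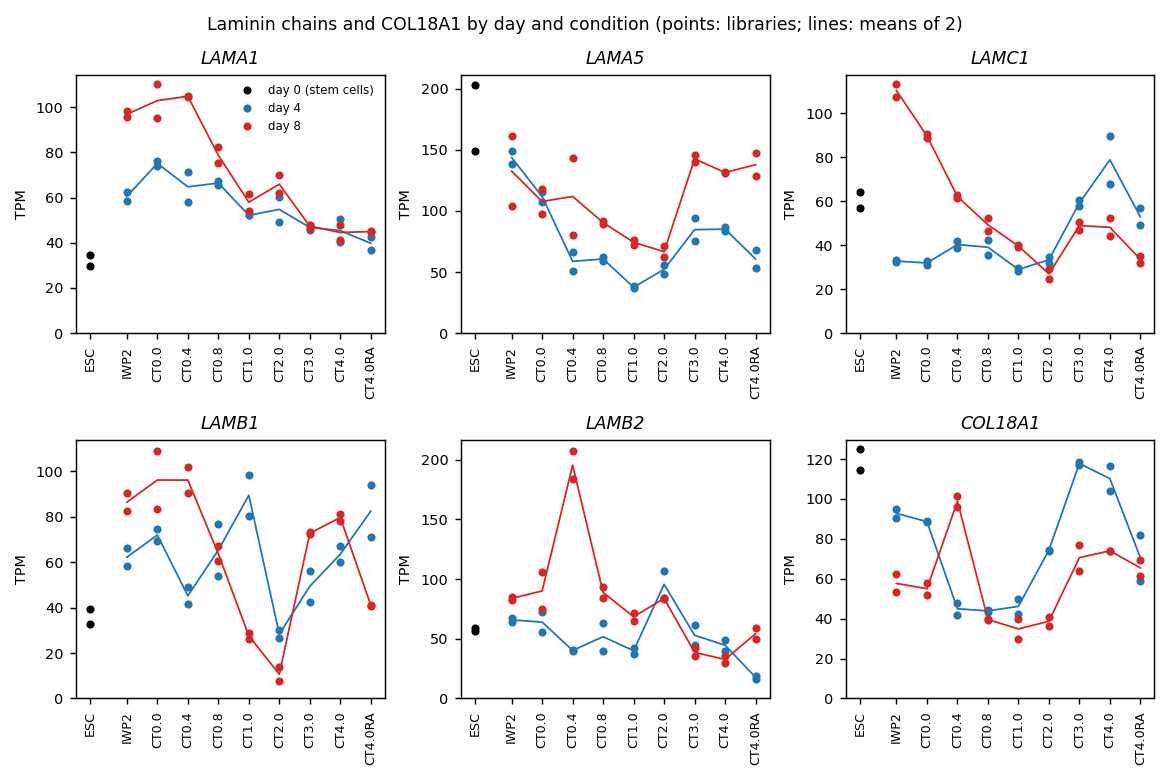
TPM of 5 laminin chains and COL18A1 (y axes, each from 0) in stem cells (black), at day 4 (blue) and at day 8 (red) across the 9 conditions; points are single libraries and lines join means of 2. LAMB1 reaches its minimum of 7.48 and 13.8 TPM in D8 CT2.0 and LAMB2 its maximum of 184 and 207 TPM in D8 CT0.4.

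Type VI collagen forms beaded filaments close to the cell surface from 3 chains. COL6A1 had 18 and 18.7 TPM in D4 CT0.0, against 78.5 and 70.2 TPM in D0 ESC (-1.96 ± 0.10, adjusted p = 4.29e-13), and 43.8 and 40.6 TPM in D8 CT0.0 (1.16 ± 0.10 over day 4, adjusted p = 2.50e-08). COL6A2, its partner chain, had 9.66 and 9.67 TPM in D4 CT0.0, against 63.9 and 49.6 TPM in D0 ESC (-2.43 ± 0.27, adjusted p = 1.26e-07), and stayed at 24.6 TPM or less after day 0. COL6A1 exceeded COL6A2 in every library. COL6A3, the third chain of the usual trimer, reached only 2.32 TPM, in a D0 ESC library. COL7A1, the chain of the anchoring fibrils of skin, had 14.5 and 16.4 TPM in D8 CT4.0RA, against 5.13 and 7.38 TPM in D8 CT4.0 (1.20 ± 0.33, adjusted p = 0.00851), and this call ended at 0.97 without D8 CT4.0 replicate 1 and, with an adjusted p of 0.0632, at 1.12 without D8 CT4.0RA replicate 2. At day 4 the difference had the opposite sign, 4.79 and 2.84 TPM with RA and 6.13 and 13.8 TPM without, and the RA effects differed between days by 2.32 ± 0.47 (adjusted p = 0.00123).

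The short chain network collagens were scarce. COL8A2 had 0 and 0.0376 TPM in D4 CT0.0, against 2.41 and 1.87 TPM in D0 ESC (-1.62 ± 0.12, adjusted p = 4.00e-10). COL8A1 and COL10A1, a collagen of hypertrophic cartilage, gave uneven replicates. COL8A1 had 0.0777 and 4.02 TPM in D4 CT0.4 and 3.55 and 0.326 TPM in D8 CT0.0.

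Among the collagens that decorate fibrils (the FACIT group), the type IX chains moved apart. Type IX collagen is a heterotrimer of COL9A1, COL9A2 and COL9A3 that coats type II fibrils. COL9A3 had 2.85 and 4.38 TPM in D4 CT0.0, against 83.6 and 65.8 TPM in D0 ESC (-4.05 ± 0.31, adjusted p = 3.47e-10), whereas COL9A1 had 57.1 and 56.6 TPM, against 34.1 and 23.5 TPM. In D8 CT0.4 all 3 chains were at their highest of day 8. COL9A2 had 96.6 and 85.5 TPM there, against 12 and 10.8 TPM in D8 CT0.0 (2.90 ± 0.25, adjusted p = 8.80e-09), and no library of any other group exceeded 12.4 TPM.

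COL9A1 was lower with CT4.0 on both days, although D8 CT0.4 had its highest level, 89.8 and 82.4 TPM. D4 CT4.0 had 13.4 and 16.3 TPM, against 57.1 and 56.6 TPM in D4 CT0.0 (-1.88 ± 0.23, adjusted p = 1.35e-06). D8 CT4.0 had 5.11 and 3.42 TPM, against 51.7 and 36 TPM in D8 CT0.0 (-3.09 ± 0.23, adjusted p = 3.16e-10), and the effects differed between days by -1.21 ± 0.32 (adjusted p = 0.0113). That difference between days lost its call with TMM scaling and without D8 CT0.0 replicate 1. COL9A3 with RA at day 8 had 0.955 and 0.254 TPM, against 4.91 and 8.51 TPM with CT4.0 alone (-2.26 ± 0.31, adjusted p = 4.67e-06).

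COL12A1 and COL14A1, chains found on type I fibrils of dense connective tissue, changed between the days in untreated cells. COL12A1 had 5.96 and 6.86 TPM in D8 CT0.0, against 0.796 and 0.748 TPM in D4 CT0.0 (2.06 ± 0.23, adjusted p = 9.43e-07), and 0.632 and 0.108 TPM in D8 CT4.0 (-2.46 ± 0.23 against D8 CT0.0, adjusted p = 1.06e-08). COL14A1 had 0.617 and 0.769 TPM in D8 CT0.0, against 3.46 and 4.95 TPM in D4 CT0.0 (-1.61 ± 0.23, adjusted p = 2.84e-05). One group, singled out after its values were seen, stood apart among those of day 8: D8 CT3.0 had 20.7 and 13.7 TPM of COL14A1, while D8 CT2.0 had 0.67 and 1.08 TPM and D8 CT4.0 1.57 and 1.29 TPM. Stem cells were close to it, with 12.6 and 13.5 TPM in D0 ESC. D4 CT3.0 had the highest COL14A1 values of day 4, at 7.7 and 9.8 TPM. No contrast of CT3.0 was fitted. COL16A1 had 4.23 and 2.35 TPM in D8 CT0.0, against 8.56 and 9.11 TPM in D4 CT0.0 (-1.23 ± 0.36, adjusted p = 0.0178), and lost this call when D4 CT0.0 replicate 1, D4 CT0.0 replicate 2 or D8 CT0.0 replicate 2 was left out (-1.27, -1.19 and -0.91). COL22A1 reached 10.5 TPM, and with RA at day 8 it had 6.5 and 6.4 TPM, against 1.44 and 1.94 TPM with CT4.0 (1.47 ± 0.29, adjusted p = 0.000363). COL21A1, also singled out after its values were seen, had 0.167 and 5.17 TPM in D8 CT1.0 and 0.0548 and 5.59 TPM in D8 CT2.0, so its high values were each those of a single library. COL20A1 reached at most 1.21 TPM.

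COL13A1, a collagen anchored in the cell membrane that is known from the neuromuscular junction, changed in steps along the CT series. At day 4 it had 39.8 and 28.2 TPM with CT4.0, against 8.77 and 10.3 TPM in untreated cells (1.72 ± 0.36, adjusted p = 0.00103). At day 8 it had 34 and 38.3 TPM with CT4.0, against 14.1 and 13.3 TPM untreated (1.34 ± 0.36, adjusted p = 0.00512). At day 8 the doses between lay in a trough, with 0.577 and 0.958 TPM in D8 CT0.4, 0.853 and 1.05 TPM in D8 CT1.0 and 0.781 and 1.72 TPM in D8 CT2.0, and 40.7 and 42.2 TPM at the next dose, CT3.0. The differences from D8 CT0.0 were -3.06 ± 0.36 at CT0.4 (adjusted p = 1.43e-06) and -2.91 ± 0.36 at CT1.0 (adjusted p = 4.66e-06). D8 CT0.8, between these doses, had 4.28 and 9.96 TPM.

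With RA added, day 8 COL13A1 lay at the level of that trough. D8 CT4.0RA had 0.844 and 1.22 TPM, against 34 and 38.3 TPM in D8 CT4.0 (-4.20 ± 0.36, adjusted p = 6.48e-09), and D4 CT4.0RA had 3.68 and 9.13 TPM, against 39.8 and 28.2 TPM in D4 CT4.0 (-2.33 ± 0.36, adjusted p = 4.45e-05). The difference between days, -1.87 ± 0.51 (adjusted p = 0.0144), lost its call without D4 CT4.0 replicate 2 (-1.63), D4 CT4.0RA replicate 2 (-1.32) or D8 CT4.0RA replicate 1 (-1.74). Of the 5 mesoderm markers, TBXT was high in the same CT groups as COL13A1, and MEOX1 was not. TBXT, listed under its older symbol T, had 21.3 and 23.2 TPM in D8 CT4.0 and 31.3 and 41.3 TPM in D4 CT4.0, 10.2 and 9.45 TPM in D8 CT3.0 and 10.7 and 15.3 TPM in D4 CT3.0, and 0.631 TPM or less in D4 CT0.0, D8 CT0.0, D4 CT4.0RA and D8 CT4.0RA. MEOX1 had 15 and 8.51 TPM in D8 CT4.0RA, against 0 and 0.0254 TPM in D8 CT4.0. The summed level of the 5 markers was 24.3 and 25 TPM in D8 CT4.0, where 2 of the 5 averaged at least 1 TPM, and 1.08 and 1.65 TPM in D8 CT0.0, where none did. The sum did not follow COL13A1 elsewhere: it was 15.5 and 9.32 TPM in D8 CT4.0RA and 7.4 and 7.33 TPM in D8 CT0.4, groups in which COL13A1 was low. The part of such cells in the CT4.0 results, COL13A1, COL5A2 and COL3A1 included, was not tested.

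COL23A1 and COL25A1 are also transmembrane. COL23A1 was another chain of D8 CT0.4, with 24.8 and 12.8 TPM against 1.03 and 1.13 TPM in D8 CT0.0 (3.18 ± 0.22, adjusted p = 2.46e-10). It had 5.07 and 5.2 TPM in D8 CT0.8, 8.28 and 7.55 TPM in D0 ESC, and at most 2.02 TPM elsewhere. COL25A1, needed in mice for motor axons to enter muscle, had 5.56 and 8.86 TPM in D8 CT0.0, against 1.08 and 0.892 TPM in D4 CT0.0 (2.02 ± 0.43, adjusted p = 0.00164). In D8 CT0.4 it had 1.22 and 2.98 TPM, lower than D8 CT0.0 (-1.44 ± 0.43, adjusted p = 0.0241), a call that ended without D8 CT0.4 replicate 1 (-1.02) or D8 CT0.0 replicate 2 (-1.15). COL17A1, of skin hemidesmosomes, reached at most 1.66 TPM.

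COL18A1, the basement membrane chain that is the source of endostatin, ranged from 29.8 to 125 TPM over the 38 libraries. D8 CT0.4 had 96.2 and 102 TPM, against 57.9 and 52.1 TPM in D8 CT0.0 (0.84 ± 0.13, adjusted p = 8.69e-05, under the fold threshold). In GENCODE 16.4% of its exonic bases overlap SLC19A1 on the other strand. COL26A1 had 194 and 185 TPM in D8 CT0.4, against 85.3 and 86.4 TPM in D8 CT0.0 (1.13 ± 0.18, adjusted p = 6.90e-05). At day 4 the same dose had the opposite difference, 27.3 and 29.2 TPM against 70 and 68.5 TPM untreated (-1.27 ± 0.18, adjusted p = 4.81e-05). COL15A1 and COL28A1 stayed at 4.82 TPM or less.

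The step out of pluripotency called 18 of the 49 tested chains, where 16.8% of all genes tested were called in either direction. Of the 49, 4 rose and 14 fell in D4 CT0.0 relative to D0 ESC, where 7.51% of all genes tested rose and 9.24% fell. The median log2 fold change was -0.05 over the chains and 0.05 over all genes. The 4 that rose were COL2A1, LAMA1, COL4A6 and COL4A5, of which 3 belong to basement membranes, and the 4 largest falls were those of COL1A2, COL9A3, LAMC3 and COL1A1. The most abundant chains that were not called were LAMA5 (-0.64 ± 0.21, adjusted p = 0.0204) and COL18A1 (-0.43 ± 0.13, adjusted p = 0.0147). The count of 18 was 14 to 19 when 1 library was left out.

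**Figure D5:**
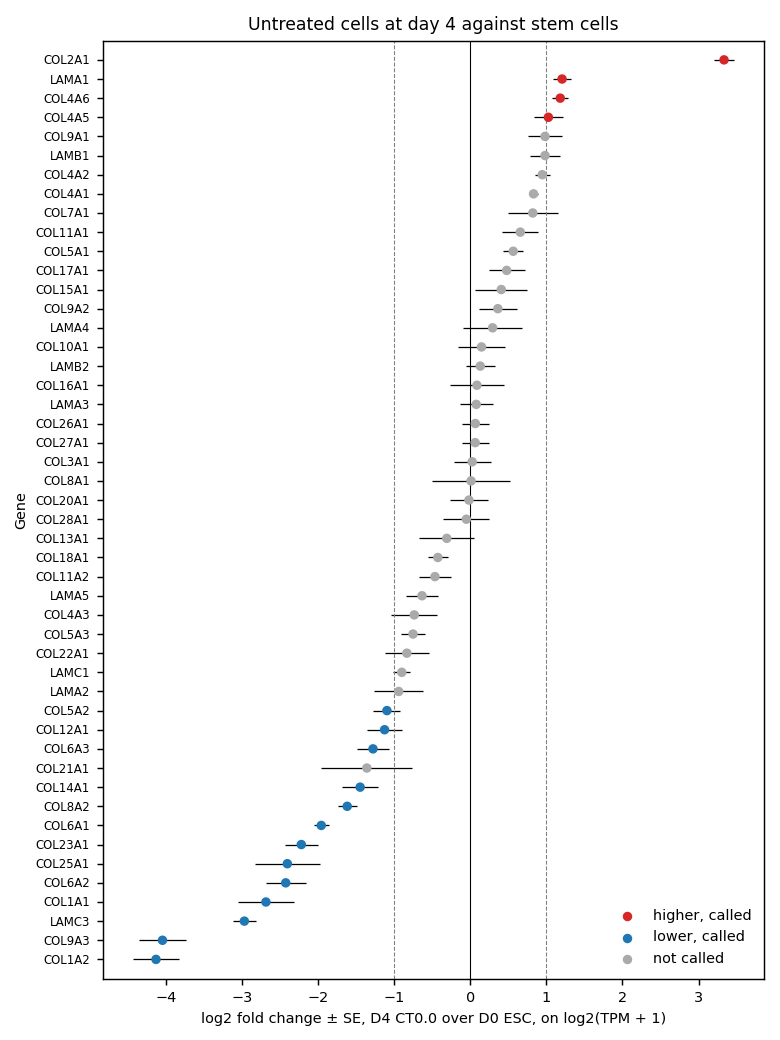
Log2 fold change ± SE of 48 of the 49 tested chains in D4 CT0.0 over D0 ESC (x axis, on log2(TPM + 1), n = 2 each), sorted; dashed lines mark the fold threshold. COL2A1 stands at 3.34 and COL1A2 at -4.13, with 4 chains called higher (red) and 13 called lower (blue).

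From day 4 to day 8 the direction in untreated cells was mostly upward. In D8 CT0.0, 9 of the 49 rose and 2 fell relative to D4 CT0.0, against 4.11% and 1.67% of all genes, with medians of 0.31 over the chains and 0.02 over all genes. The 5 largest rises were those of COL5A2, COL2A1, COL11A1, COL12A1 and COL25A1, and the falls those of COL14A1 and COL16A1. With CT4.0 the same interval gave 0 rises and 2 falls, COL9A1 (-1.60 ± 0.23, adjusted p = 1.60e-05) and COL14A1 (-1.03 ± 0.23, adjusted p = 0.00197), against 1.95% and 3.81% of all genes (551 and 1074 genes, or 860 and 692 with TMM scaling). COL14A1 lost this call with TMM scaling (-0.90), without D4 CT4.0 replicate 1 (-0.97) and without D8 CT4.0 replicate 2 (-0.95). With CT4.0RA, 7 rose and 1 fell, against 3.26% and 1.96% of all genes (920 and 554 genes, or 1263 and 471 when scaled without ribosomal protein and mitochondrial genes). COL5A2 (2.41 ± 0.18, adjusted p = 1.30e-09) and COL11A1 (1.83 ± 0.24, adjusted p = 3.97e-06) led the rises, and the fall was that of COL13A1 (-1.77 ± 0.36, adjusted p = 0.000844).

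IWP2 called no chain. The counts were 0 higher and 0 lower in D4 IWP2 relative to D4 CT0.0, against 0.159% and 0.124% of all genes (45 and 35 genes, or 26 and 35 with TMM scaling), and again 0 and 0 in D8 IWP2 relative to D8 CT0.0, against 0.195% and 0.23%. At unadjusted limma p under 0.05, 8 of the 49 tested chains differed at day 4 and 7 at day 8. The share of all genes at that threshold was not computed, so these counts cannot be read as particular to the chains. The count of called chains stayed at 0 under every alternative that was run. COL2A1 had 87.8 and 79.4 TPM in D4 IWP2, against 161 and 154 TPM in D4 CT0.0 (-0.91 ± 0.14, adjusted p = 0.001), just under the fold threshold, and 854 and 780 TPM in D8 IWP2, against 726 and 660 TPM in D8 CT0.0 (0.24 ± 0.14, adjusted p = 0.558).

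CT0.4 called few chains at day 4 and many at day 8. At day 4, 0 rose and 1 fell, COL26A1, against 0.659% and 1.57% of all genes (186 and 443 genes, or 247 and 247 with TMM scaling). The highest chain not called there besides COL2A1 was LAMA5, with 51 and 66.4 TPM against 108 and 116 TPM (-0.93 ± 0.21, adjusted p = 0.00474), which passed the fold threshold at -1.11 without D4 CT0.4 replicate 2, and the count was then 3. At day 8, 8 rose and 2 fell, against 3.55% and 2.48%. The rises were those of COL3A1, COL23A1, COL9A2, COL5A2, COL26A1, LAMB2, COL22A1 and COL9A3, and the falls those of COL13A1 and COL25A1.

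Some markers of other cells moved with the D8 CT0.4 result, and others did not. The 8 mesenchyme markers summed to 48.1 and 43.3 TPM in D8 CT0.4 and 19 and 20.8 TPM in D8 CT0.0, and 4 of the 8 averaged at least 1 TPM in D8 CT0.4 and 3 of the 8 in D8 CT0.0. Among them LUM had 14.2 and 11.2 TPM against 5.1 and 6.24 TPM and PDGFRB 22.7 and 17.9 TPM against 8.63 and 9.1 TPM, while POSTN had 0.0306 and 0 TPM in D8 CT0.4. LUM was not particular to this dose, as D8 IWP2 had 11.7 and 11.5 TPM of it, with COL3A1 at 0.164 and 0.229 TPM. In D8 CT0.4 the 5 cartilage markers summed to 19.3 and 13.2 TPM, against 5.26 and 6.16 TPM in D8 CT0.0. ACAN, their defining gene, was lower, at 0.228 and 0.843 TPM in D8 CT0.4 against 1 and 1.72 TPM in D8 CT0.0. The higher sum was that of HAPLN1 (7.84 and 4.49 TPM, against 0.122 and 0.0547 TPM) and MATN3 (10.6 and 7.36 TPM, against 3.06 and 3.69 TPM). The 6 neural crest markers summed to 29.4 and 19.1 TPM, against 15 and 17 TPM, with SOX10 at 0.206 and 0.358 TPM. ERBB3, 1 of the 6, was lower, at 6.99 and 4.27 TPM against 10.5 and 11.2 TPM. D8 CT0.8 had a higher neural crest sum, 45.8 and 30.8 TPM, with COL3A1 at 3.28 and 2.74 TPM. Of the 4 notochord and floor plate markers FOXJ1 had 39.4 and 27.6 TPM, against 0.48 and 0.588 TPM, and SHH and FOXA2 stayed under 1 TPM. The 6 neural progenitor markers summed to 742 and 935 TPM, against 1210 and 1110 TPM, and did not move as one. PAX6 was higher, with 353 and 406 TPM against 126 and 95.1 TPM, and SOX2 was lower, with 109 and 149 TPM against 414 and 386 TPM, as was HES5, with 8.16 and 21.8 TPM against 156 and 157 TPM. The part of these cells in the result was not tested.

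CT1.0 gave mixed directions at day 4 and mostly falls at day 8. At day 4, 4 rose (COL11A1, COL5A3, COL1A2 and COL5A2) and 3 fell (LAMA5, COL9A1 and COL14A1), against 1.44% and 3.78% of all genes (405 and 1068 genes, or 585 and 532 with TMM scaling). With TMM scaling the split was 4 to 1, as COL9A1 (-0.94) and COL14A1 (-0.85) missed the fold threshold. COL1A2 (1.09 ± 0.31, adjusted p = 0.0118) lost its call when any 1 of 3 libraries was left out, at 0.93 without D4 CT0.0 replicate 1, 1.10 without D4 CT1.0 replicate 1 and 1.07 without D4 CT1.0 replicate 2. COL5A2 (1.02 ± 0.18, adjusted p = 0.000188) fell under the threshold without D4 CT0.0 replicate 2 (0.85) or D4 CT1.0 replicate 2 (0.98), and COL14A1 (-1.06 ± 0.23, adjusted p = 0.00166) without D4 CT1.0 replicate 1 (-0.61) or D4 CT0.0 replicate 2 (-0.86). At day 8, 2 rose and 8 fell, against 1.79% and 2.8% of all genes. The rises were those of COL5A3 and COL3A1, and the 5 largest falls those of COL13A1, COL9A3, LAMB1, COL9A1 and COL4A6. Neuron markers were higher in the same libraries, where the 4 of them summed to 735 and 600 TPM, against 241 and 254 TPM in D8 CT0.0, with TUBB3 at 606 and 514 TPM, against 174 and 180 TPM. The 6 neural progenitor markers summed to 1460 and 1390 TPM, against 1210 and 1110 TPM. All 4 and all 6 averaged at least 1 TPM in both groups, and the part of these cells in the result was not tested.

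CT4.0 called 5 rises and 3 falls at day 4, against 3.31% and 4.99% of all genes (934 and 1407 genes, or 1096 and 1056 with TMM scaling). The rises, from the largest, were those of COL5A2, COL13A1, COL3A1, LAMC1 and COL1A1, and the falls those of COL9A1, COL26A1 (-1.22 ± 0.18, adjusted p = 1.47e-05) and COL16A1. The COL16A1 fall (-1.19 ± 0.36, adjusted p = 0.017) lost its call when any 1 of the 4 libraries was left out, with -1.23 without D4 CT0.0 replicate 1, -1.15 without D4 CT0.0 replicate 2, -1.17 without D4 CT4.0 replicate 1 and -1.22 without D4 CT4.0 replicate 2. At day 8, 2 rose and 10 fell, against 3.15% and 12.7% of all genes, with medians of -0.35 over the chains and -0.27 over all genes. The rises were those of COL3A1 and COL13A1 and the 5 largest falls those of COL9A1, COL2A1, COL12A1, COL4A6 and COL11A1. TMM scaling shifts the median of all genes in this comparison by 0.33, turns the split over all genes (889 higher and 3580 lower) to 1650 and 1810, and left 2 rises and 6 falls among the chains. The test of the difference between days called 8 chains as lower at day 8 and 0 as higher, against 6.52% and 1.67% of all genes (1839 and 472 genes, or 1032 and 746 with TMM scaling), and 5 without D8 CT0.0 replicate 1 and also 5 with TMM scaling.

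With RA added to CT4.0 more chains fell than rose on both days. At day 4, 0 rose and 13 fell, against 1.77% and 4.07% of all genes (500 and 1148 genes, or 721 and 700 with TMM scaling), with medians of -0.41 over the chains and -0.18 over all genes. The 5 largest falls were those of COL5A2, COL1A1, COL13A1, COL3A1 (0 and 0 TPM with RA, 1.82 and 2.91 TPM without) and COL9A1, and the most abundant chains not called were COL2A1 (-0.17 ± 0.14, adjusted p = 0.456) and COL18A1 (-0.65 ± 0.13, adjusted p = 0.000906). At day 8, 2 rose, COL22A1 and COL7A1, and 8 fell, against 4.54% and 4.33% of all genes (1281 and 1223 genes, or 1733 and 955 when scaled without ribosomal protein and mitochondrial genes). The 5 largest falls were those of COL13A1, COL9A3, COL3A1, COL1A1 and COL5A2. The RA effect differed between days for 8 chains, 6 higher and 2 lower at day 8, against 5.56% and 1.56% of all genes (1570 and 441 genes, or 1124 and 865 with TMM scaling). The RA and CT4.0 comparisons share the CT4.0 libraries.

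Neural markers moved with RA in these libraries. The 6 neural progenitor markers summed to 619 and 586 TPM in D4 CT4.0RA, against 303 and 292 TPM in D4 CT4.0, and to 837 and 872 TPM in D8 CT4.0RA, against 239 and 238 TPM in D8 CT4.0. At day 8, 6 of the 6 averaged at least 1 TPM with RA and 4 of the 6 without. The 4 neuron markers summed to 102 and 90 TPM in D4 CT4.0RA, against 187 and 260 TPM in D4 CT4.0, and to 340 and 386 TPM in D8 CT4.0RA, against 175 and 186 TPM in D8 CT4.0. So the neuron sum was lower with RA at day 4 and higher at day 8. The neuron markers did not move as one. DCX, a neuronal microtubule protein, had 23.2 and 21.7 TPM in D8 CT4.0RA, against 0.122 and 0.297 TPM in D8 CT4.0. ELAVL3 had 5.19 and 11.7 TPM in D8 CT4.0RA, against 9.83 and 10.4 TPM in D8 CT4.0. At day 4 DCX was higher with RA, unlike the sum, with 3.04 and 2.15 TPM against 0.859 and 0.652 TPM. The part of these cells in the RA results was not tested.

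Genes that make, bind or cut the matrix were counted in the same contrasts. Of 30 tested genes of collagen processing (31 listed), 2 rose and 9 fell in D4 CT0.0 relative to D0 ESC, with a median of -0.16, against 7.51% and 9.24% of all genes and a median of 0.05. The largest falls were those of P3H2 (-3.38 ± 0.34, adjusted p = 2.99e-08) and PLOD2 (-3.12 ± 0.21, adjusted p = 4.39e-11), which hydroxylate proline and lysine in collagen, while SERPINH1, the collagen chaperone and the most abundant gene of the list not called, differed by 0.18 ± 0.06. With CT4.0, 5 rose and 0 fell at day 4 (median 0.17), against 3.31% and 4.99% of all genes, led by PLOD2 (3.23 ± 0.21, adjusted p = 5.23e-11) and P4HA2 (3.18 ± 0.28, adjusted p = 9.02e-09), a subunit of prolyl hydroxylase. At day 8, 4 rose and 4 fell (median -0.11), against 3.15% and 12.7% of all genes. In D8 CT0.4, where the collagens above peaked, 3 rose and 0 fell (median 0.16), against 3.55% and 2.48% of all genes, with P4HA2 (1.89 ± 0.28, adjusted p = 3.14e-05) and P3H2 (1.59 ± 0.34, adjusted p = 0.00166) first.

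Among 14 basement membrane partners, 3 rose and 3 fell in D4 CT0.0 relative to D0 ESC (median 0.05), against the same 7.51% and 9.24% of all genes. SMOC1, a calcium-binding matrix protein, had the largest rise (6.43 ± 0.18, adjusted p = 1.31e-17), and its relative SMOC2 fell (-3.63 ± 0.33, adjusted p = 8.49e-09). The nidogens, which bridge laminin and collagen IV, went apart at D8 CT1.0, where LAMB1, LAMC1 and COL4A6 were low: NID2 rose (3.79 ± 0.28, adjusted p = 1.57e-09) and NID1 fell (-2.69 ± 0.15, adjusted p = 1.18e-11), the only calls of the list there, where 1.79% of all genes rose and 2.8% fell. FREM1, a basement membrane protein of the Fraser complex, rose with CT4.0 at day 4 (5.16 ± 0.29, adjusted p = 4.02e-12) and day 8 (4.00 ± 0.29, adjusted p = 1.84e-10), and fell when RA was added (-3.25 ± 0.29, adjusted p = 1.48e-08, at day 4, and -1.54 ± 0.29, adjusted p = 0.00025, at day 8). SPARC, a collagen-binding protein, was not called in any contrast.

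Of 12 tested matrix receptors (13 listed), 0 rose and 4 fell in D4 CT0.0 relative to D0 ESC (median -0.32), against 7.51% and 9.24% of all genes, led by BCAM, a receptor for the laminin alpha 5 chain (-2.18 ± 0.24, adjusted p = 1.08e-07). ITGA6, an integrin chain for laminin, fell in D8 CT0.0 relative to D4 CT0.0 (-2.57 ± 0.19, adjusted p = 2.38e-09) and rose in D8 CT0.4 relative to D8 CT0.0 (1.81 ± 0.19, adjusted p = 2.24e-07). In D8 CT4.0, 0 rose and 3 fell (median -0.48), where 3.15% of all genes rose and 12.7% fell with a median of -0.27, and where TMM scaling gave 1650 higher and 1810 lower genes in all. Among the 3 were ITGA3, another laminin integrin chain (-2.95 ± 0.35, adjusted p = 3.75e-07), and DAG1, dystroglycan (-1.68 ± 0.09, adjusted p = 3.05e-12). ITGB1, the common partner chain, was not called in D4 CT4.0 (-0.48 ± 0.06, adjusted p = 4.44e-06). At day 8 ITGB1 was also among the 3 that fell, with 93 and 99.6 TPM in D8 CT4.0, against 215 and 201 TPM in D8 CT0.0. Of 11 tested proteases and inhibitors (14 listed), 1 rose and 4 fell in D4 CT0.0 relative to D0 ESC (median -0.38), against 7.51% and 9.24% of all genes, led by MMP14 (-3.57 ± 0.28, adjusted p = 7.71e-10). MMP2, a gelatinase that MMP14 activates, rose with CT4.0 at day 4 (2.07 ± 0.12, adjusted p = 5.94e-12) and day 8 (1.98 ± 0.12, adjusted p = 8.29e-12), and fell when RA was added (-1.51 ± 0.12, adjusted p = 2.20e-09, at day 4, and -1.86 ± 0.12, adjusted p = 4.22e-11, at day 8). TIMP3, an inhibitor bound to the matrix, rose between day 4 and day 8 in untreated cells (1.71 ± 0.19, adjusted p = 9.59e-07), with CT4.0 (1.76 ± 0.19, adjusted p = 4.21e-07) and with CT4.0RA (1.97 ± 0.19, adjusted p = 5.49e-08).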

How the data were processed

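Poly(A) RNA was sequenced from 38 libraries in 19 groups of 2. The deposited table holds TPM per gene for 58219 GENCODE 29 genes, computed by the authors. The submitters' processing notes name hg38, Salmon 0.8.2 and CASAVA 1.7, without order or settings. TPM keeps no depth, so the depth of each library is unknown and no counting interval is given. Each sample was grouped by its labels.

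Values were taken as log2(TPM + 1) for the 28221 genes that reached 1 TPM in 2 or more libraries. One limma 3.58.1 fit (R 4.3.3, empirical Bayes with trend) over 19 group means left 19 residual degrees of freedom. It gave 16 contrasts, 2 of them differences between days, and 2 F tests. TMM factors, trimming 30% of log ratios and 5% of levels at each end, were computed without the usual weights, which need read counts. Errors are SE of the fit, and the fit was tested on simulated data.

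The rule for the members uses gene names alone, but that family was picked, and the lists were drawn up, with earlier results of these data known. Named in each comparison were the 5 largest called changes per direction, the 2 most abundant chains not called, any of 9 basement membrane chains, and for the 4 matrix lists the 2 largest called changes and the most abundant gene not called. Other members are described by their levels, and some also by fold changes that were not recomputed one by one under the alternatives. The values of 1 tested chain are not reported here, though it counts in the totals. Promoter sequences are from RefSeq on GRCh38.p14. Alternatives were another pseudocount, no filter, other scalings, protein-coding genes alone, a replicate block, and leaving out single libraries.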

Additional observations from a re-analysis of the deposited data

Results flagged for a closer look

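The effect of CT4.0 over untreated cells differed between day 8 and day 4, by the limma test of the difference itself, for 8 chains. All 8 values, day 8 minus day 4 in log2, were negative, with SE over 2 libraries a group and adjusted p over all genes tested. They were -2.65 ± 0.19 for COL2A1 (adjusted p = 7.42e-09), -2.15 ± 0.16 for LAMC1 (adjusted p = 1.02e-08) and -2.12 ± 0.25 for COL5A2 (adjusted p = 3.90e-06). COL12A1 had -1.97 ± 0.32 (adjusted p = 0.000155), COL11A1 -1.79 ± 0.34 (adjusted p = 0.00062), COL9A3 -1.43 ± 0.43 (adjusted p = 0.0247) and COL9A1 -1.21 ± 0.32 (adjusted p = 0.0113). COL9A3 and COL9A1 lost their calls with TMM scaling and without D8 CT0.0 replicate 1. The 5 chains named before them kept theirs in both settings. COL4A6 had -1.06 ± 0.15 (adjusted p = 2.65e-05), under the fold threshold without D4 CT0.0 replicate 1 (-0.99), without D8 CT0.0 replicate 1 (-0.95), with TMM scaling (-0.77) and when scaled without ribosomal protein and mitochondrial genes (-0.97).

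The effect of RA added to CT4.0 also differed between the days for 8 chains. It was higher at day 8 for COL7A1 (2.32 ± 0.47, adjusted p = 0.00123), COL5A2 (2.17 ± 0.25, adjusted p = 2.90e-06), LAMB2 (2.00 ± 0.27, adjusted p = 2.15e-05), COL22A1 (1.94 ± 0.40, adjusted p = 0.00167), COL9A1 (1.61 ± 0.32, adjusted p = 0.00124) and COL11A1 (1.51 ± 0.34, adjusted p = 0.00309). It was lower for LAMB1 (-1.30 ± 0.29, adjusted p = 0.00291) and COL13A1 (-1.87 ± 0.51, adjusted p = 0.0144), of which COL13A1 lost its call without D4 CT4.0 replicate 2 (-1.63), D4 CT4.0RA replicate 2 (-1.32) or D8 CT4.0RA replicate 1 (-1.74). Both sets of differences use the CT4.0 libraries, so they are not independent.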

How the results depend on the processing

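For 126 changes of named chains, 94 of them called, 1324 values were recomputed. Of these 1259 kept direction and side of the threshold, 49 lost the call, 1 gained it and 15 turned in sign, all of these 15 for changes that were not called. The counts of called chains stayed within 1.5 times in 208 of 216 recomputations. In D8 CT4.0 over D4 CT4.0 the count of 2 became 4 with a pseudocount of 0.1, 1 with TMM scaling and 1 when scaled without ribosomal protein and mitochondrial genes. In D4 CT0.4 the count of 1 became 2 with a pseudocount of 0.1 and was 1 to 3 when 1 library was left out. For the difference of the CT4.0 effect between days the count of 8 became 5 with TMM scaling and was 5 to 10 when 1 library was left out. COL16A1 in D8 CT0.0 over D4 CT0.0 (-1.46) and in D4 CT4.0 (-1.39), and COL1A1 in D4 CT4.0 (1.21), lost their calls with a pseudocount of 0.1, and COL1A1 also without the filter (1.01, adjusted p = 0.0723). The causes were not tested.

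The values that turned in sign were these. When 1 library was left out, LAMA5 ranged from -0.195 to 0.081 in D8 CT0.0 over D4 CT0.0 (highest without D8 CT0.0 replicate 2), from -0.045 to 0.584 in D8 IWP2 (lowest without D8 IWP2 replicate 1), from -0.033 to 0.163 in D8 CT4.0RA over D8 CT4.0 (lowest without D8 CT4.0RA replicate 1) and from -0.412 to 0.414 in D8 CT0.4 (lower without D8 CT0.4 replicate 2 and, at -0.137, without D8 CT0.0 replicate 2). In D8 CT0.4 LAMA5 had -0.038 with TMM scaling and -0.065 without ribosomal protein and mitochondrial genes. COL2A1 in D8 CT0.4 ranged from -0.123 to 0.09 (0.052 without D8 CT0.0 replicate 1 and 0.09 without D8 CT0.4 replicate 2), and in D4 CT4.0RA over D4 CT4.0 it had 0.143 with TMM scaling and 0.016 without ribosomal protein and mitochondrial genes. With TMM scaling the RA effect of COL2A1 at day 8 minus day 4 was -0.014. COL4A2 had 0.153 in D8 CT4.0 with TMM scaling, and in D8 CT4.0RA over D4 CT4.0RA it had -0.02 with TMM scaling and ranged from -0.012 (without D4 CT4.0RA replicate 2) to 0.065 when 1 library was left out. TMM scaling moved the median of all genes by -0.182 to 0.327 by contrast.

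With a replicate block the counts of called chains stayed the same, at 18 for D4 CT0.0 over D0 ESC, 11 for D8 CT0.0 over D4 CT0.0 and 12 for D8 CT4.0 over D8 CT0.0 among others. Deviations of same-numbered libraries correlated at -0.043 to 0.037 over the 171 pairs of groups, so no shared deviation by replicate number was seen over all tested genes. With 2 libraries a group and no read counts, the precision of low chains is limited.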
